A study of Homo sapiens with 8 samples.

Results

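The 39 collagen chain genes of a fixed list were described across 8 human cancer cell lines. The genes were taken by symbol from the deposited tables, in which they are 39 of 58202 gene identifiers. COL11A2 alone had more than 1 identifier, and the one with the highest mean of its 7 was used. RNA sequencing had been run on cancer lines that express the receptor tyrosine kinase ERBB4, in a study of their response to the kinase inhibitor ibrutinib. Each line gave 1 library, from cells kept for 48 hours in plates, and the passages listed run from 3 to 15. The lung lines were H522 (non-small cell lung cancer), H661 (large cell) and H146 (small cell). The endometrial lines were KLE (an adenocarcinoma) and HEC59 (a carcinoma). H716 came from the cecum (colorectal adenocarcinoma), 1321N1 was a Glial line from an astrocytoma, and COV318 an ovarian serous carcinoma line. The labels do not say which lines respond to ibrutinib, so response was not compared. A line is the descendant of 1 tumour without its stroma, and a tissue here stands for 1 to 3 such tumours.

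Collagens are trimers of chains that wind into a helix, and each chain is encoded by its own gene. Fibrillar collagens assemble into the tensile fibres of connective tissue, type IV collagens form the sheet-like network of basement membranes, and fibril-associated collagens decorate the fibres. In carcinomas much of the fibrillar collagen is known to come from fibroblasts of the stroma, while carcinoma cells and glioma cells also transcribe collagen genes themselves. Chains are hydroxylated, glycosylated and folded in the endoplasmic reticulum, trimmed outside the cell and then cross-linked.

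Values are FPKM, fragments scaled by gene length and library size, so levels of different chains can be set side by side. FPKM hold no read totals, and absolute depth is unknown. From the steps of the lowest values, relative depth spanned 1 to 2.69, lowest in KLE and highest in 1321N1. The lines were split by these steps into 2 sets of equal size. H522, H661, KLE and H716 had steps more alike on average, and so did the other 4 lines. Each set is called a step pattern, though the split was not clean for every pair of lines. Between 12205 and 13300 genes per line reached an FPKM of 1. Mullerian markers were at 1 or more for all 6 genes in both endometrial lines and for 4 in COV318. Of 5 intestinal markers, H716 had 3 at 1 or more: CDH17 at 137, CDX2 at 1.31 and VIL1 at 1.07, with LGALS4 at 0.376 and CDX1 listed at 0. VIL1 was highest in H146, at 8.74. Of 10 neuroendocrine markers, H146 had 9 and H716 had 8 at 1 or more, and the other lines had at most 2. The lung lineage list was nearly silent in the lung lines, where NKX2-1 at 11.2 in H661 was the single gene of 5 at 1 or more. In 1321N1, GFAP was at 3.10 and was the single glial marker of 6 at 1 or more. The endothelial list summed to at most 3.03 and the immune list to at most 14.3 in any line, and PECAM1 was listed at 0 in all of them. Without repeat libraries a difference between 2 lines has no error, and in a bulk sample fewer cells of a type and less RNA per cell cannot be told apart.

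Collagen transcription was patchy from line to line. Of the 39 chains, 28 reached an FPKM of 1 in at least 1 line and 19 reached 10. No chain reached 1 in all 8 lines, whereas 44.6% of all detected genes did. COL3A1 was the most widespread, at 1 or more in 7 lines, followed by COL6A1, COL11A1 and COL12A1 in 6 lines each. A further 7 chains, 25% of those detected, reached 1 in a single line, against 18.5% of all detected genes. The median SD of log2(FPKM + 1) over the 8 lines was 1.54 for detected chains and 0.64 for all detected genes. The number of chains at 1 or more was 16 in KLE, 15 in 1321N1, 13 in H661 and COV318, 11 in HEC59, 10 in H716, 8 in H522 and 5 in H146.

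**Figure D1:**
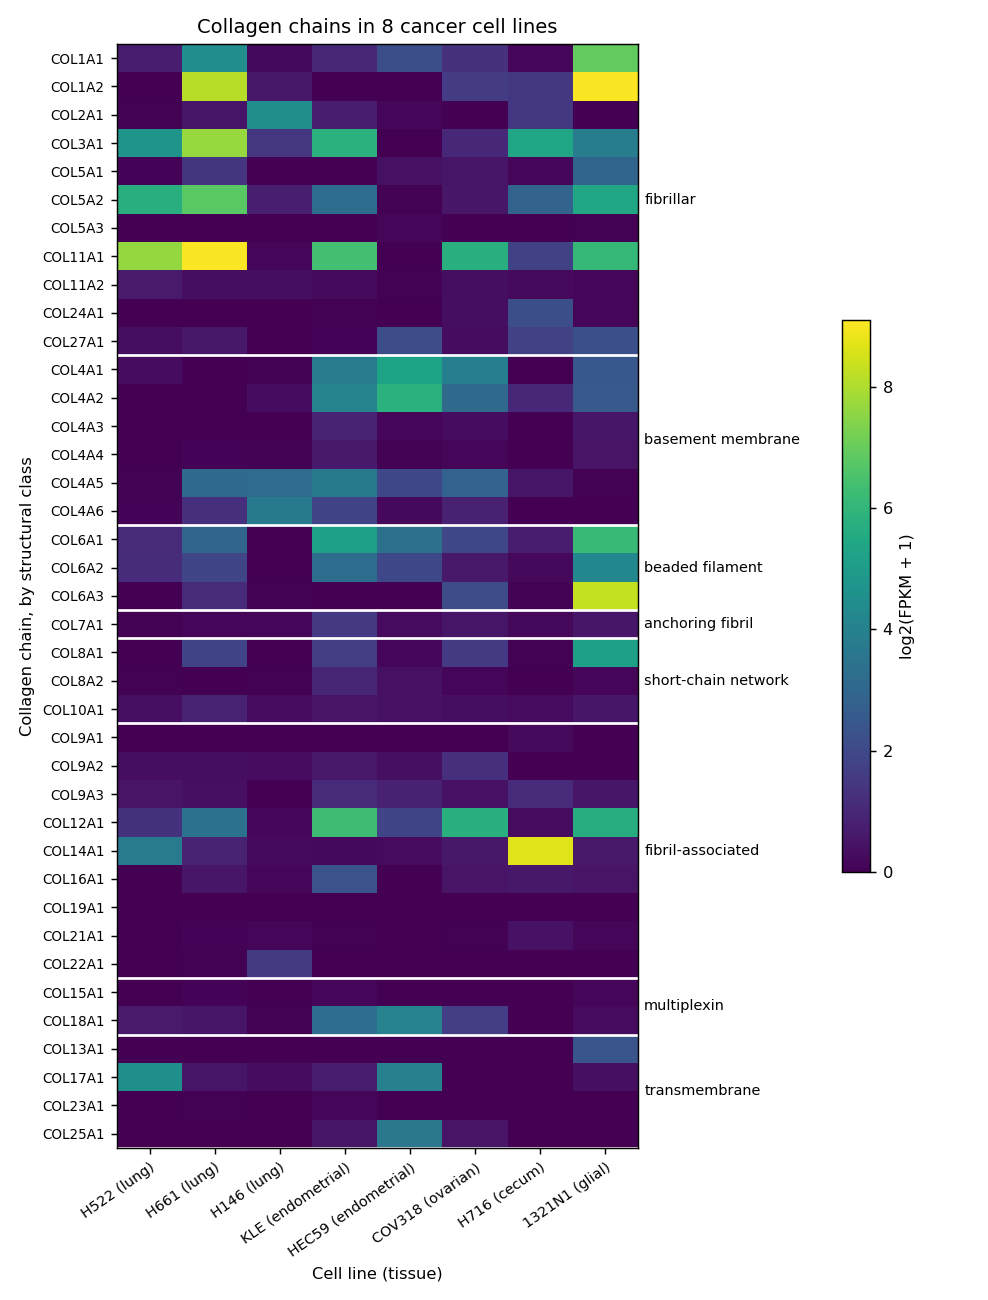
Levels of the 39 collagen chains, as log2(FPKM + 1) by colour, in each of the 8 lines (columns, with tissue) and grouped by structural class (rows). Bright cells are few and differ by line: COL1A2 in 1321N1, COL11A1 in H661 and COL14A1 in H716 are the brightest, and no row is bright throughout.

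The summed FPKM of the 39 chains differed widely between lines. It was 1289.6 in 1321N1, 1181 in H661, 470.2 in H716, 331.9 in KLE, 318.3 in H522, 161.9 in HEC59, 154.8 in COV318 and 48.5 in H146. The 2 highest lines stood well apart from the rest and the small cell line H146 was lowest, while HEC59 and COV318 were close together, as were KLE and H522. As a share of all FPKM in a line, collagens made up 0.289% in H661, 0.252% in 1321N1 and 0.0129% in H146. The sum follows a few chains: the 3 highest chains of a line made up between 64.4% (KLE) and 96.3% (H716) of it. Ordered instead by the mean of log2(FPKM + 1) over the chains, 1321N1 stayed highest and H146 lowest, and these were the 2 lines that kept their place.

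Fibrillar chains were the leading class in 6 of the 8 lines, but 6 different chains led. COL11A1 led in H522, H661 and KLE, with 62.8%, 44.9% and 24.9% of the collagen sum. COL14A1 made up 86.2% in H716, COL1A2 41.3% in 1321N1, COL4A2 34.2% in HEC59, COL12A1 34.4% in COV318 and COL2A1 44.4% in H146. By class, fibrillar chains held 96.9% of the sum in H661, 87.2% in H522, 60.9% in 1321N1, 51.4% in H146, 44.7% in KLE, 37.0% in COV318, 12.7% in H716 and 4.70% in HEC59. Type IV chains, by contrast, held 59.3% in HEC59, 41.9% in H146, 19.2% in COV318 and 13.2% in KLE, and under 1% in the other lines. The endometrial lines therefore did not share a profile: KLE was led by fibrillar chains and HEC59 by basement membrane chains.

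**Figure D2:**
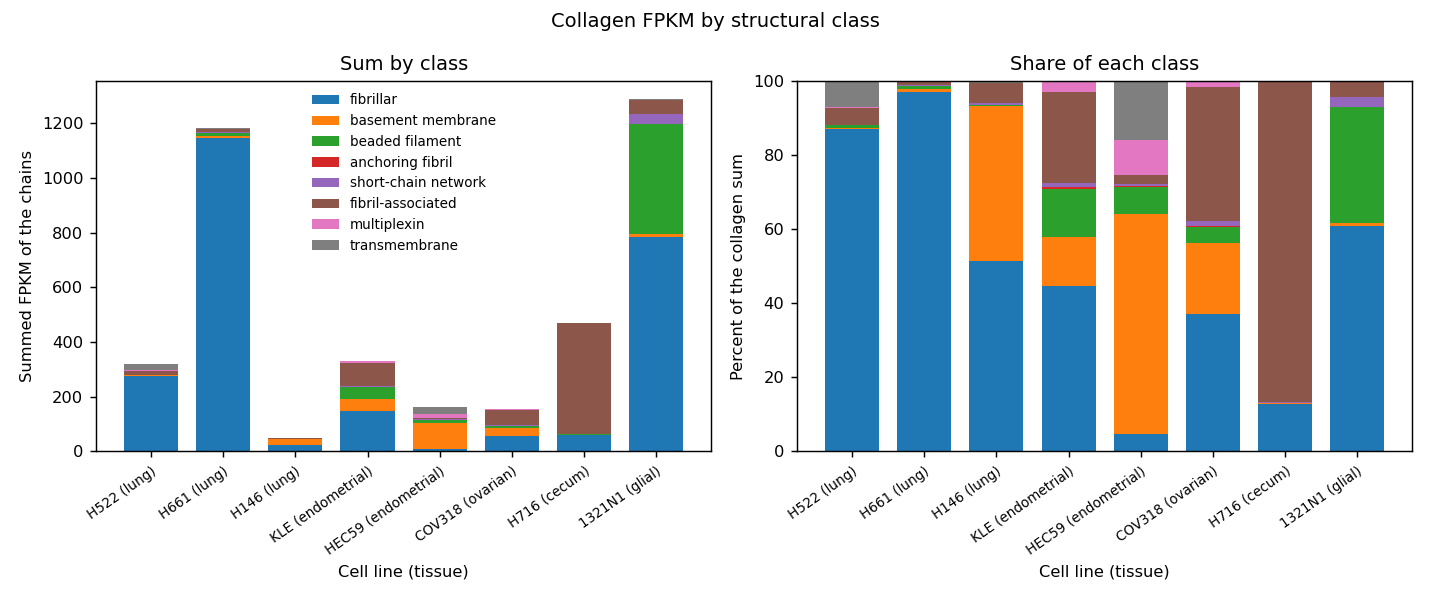
Summed FPKM of the collagen chains by structural class (left, stacked bars from 0) and each class as a percent of the line's collagen sum (right), with 1 bar per line and no replicates. 1321N1 and H661 carry the tallest bars, fibrillar chains fill most of H661 and H522, type IV chains most of HEC59, and fibril-associated chains most of H716.

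Among fibrillar chains, those of type I, the main collagen of skin and bone, were high in 1321N1 and H661. COL1A2 was at 533 in 1321N1, 278 in H661, 2.09 in COV318, 1.79 in H716 and 0.501 in H146, and was listed at 0 in H522, KLE and HEC59. COL1A1, the partner chain that supplies most of the type I trimer, was at 121 in 1321N1, 21.2 in H661, 3.55 in HEC59, 1.48 in COV318, 1.04 in KLE, 0.622 in H522, 0.135 in H146 and 0.0879 in H716. Both chains were highest in the same 2 lines, but the lower lines were not ordered alike. Per length, COL1A2 exceeded COL1A1 13.1-fold in H661, 4.42-fold in 1321N1 and 1.41-fold in COV318. In HEC59 and KLE COL1A1 passed 1 while COL1A2 was listed at 0.

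COL3A1, which forms thin fibres alone or with type I, was at 205 in H661, 55.2 in KLE, 40.8 in H716, 25.5 in H522, 13.2 in 1321N1, 1.69 in H146 and 1.02 in COV318, and was listed at 0 in HEC59. COL5A2, a chain of the type V collagen that starts fibrils, was at 108 in H661, 50.6 in H522, 41.9 in 1321N1, 8.27 in KLE, 6.52 in H716, 0.695 in H146, 0.483 in COV318 and 0.0487 in HEC59. H661 had the highest and HEC59 the lowest level of both. The other type V chains were lower: COL5A1 reached 6.61 in 1321N1 and 1.60 in H661 and stayed under 1 elsewhere, and COL5A3 did not exceed 0.110.

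COL11A1, a chain of a minor fibrillar collagen best known from cartilage, had the highest single level of the lung lines. It was at 530 in H661, 199.8 in H522, 82.8 in KLE, 65.9 in 1321N1, 51.0 in COV318, 2.46 in H716 and 0.0990 in H146, and was listed at 0 in HEC59. The 3 lung lines spanned nearly the whole range, with H146 next to the bottom. In 5 of the lines (H661, KLE, H716, 1321N1 and COV318) the deposited tables give this gene in scientific notation with 3 digits. COL11A2, its partner chain, did not exceed 0.579. The promoter window of COL11A1 (RefSeq, GRCh38.p14, chr1:103108473-103108772, minus strand) is shown because this chain led the collagen sum in 3 lines. Windows run from 250 bases before to 50 bases after the start, 5′ to 3′, and capitals mark matches to CCAAT or GGGCGG on either strand (ATTGG and CCGCCC on the reverse).
COL11A1: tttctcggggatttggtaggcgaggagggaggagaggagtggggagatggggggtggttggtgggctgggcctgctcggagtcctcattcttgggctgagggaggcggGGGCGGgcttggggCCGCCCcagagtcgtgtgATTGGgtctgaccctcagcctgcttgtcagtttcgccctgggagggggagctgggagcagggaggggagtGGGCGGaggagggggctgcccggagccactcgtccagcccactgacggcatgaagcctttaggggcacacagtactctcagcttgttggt

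COL2A1, the main fibrillar chain of cartilage, was at 21.5 in H146, 1.77 in H716, 0.656 in KLE, 0.445 in H661, 0.127 in HEC59 and 0.0491 in H522, and was listed at 0 in 1321N1 and COV318. The line with the lowest collagen sum thus had the highest COL2A1, 12.2-fold above the next line. Of the remaining fibrillar chains, COL24A1 reached 3.51 in H716 alone, and COL27A1 reached 3.64 in 1321N1, 3.40 in HEC59 and 2.41 in H716.

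Type IV collagen is encoded by 3 pairs of genes whose members start close together on opposite strands of a chromosome. COL4A2, which with COL4A1 makes the common basement membrane network, was at 55.4 in HEC59, 15.8 in KLE, 7.96 in COV318, 4.82 in 1321N1, 1.03 in H716, 0.247 in H146 and 0.0159 in H522, and was listed at 0 in H661. COL4A1 was at 37.4 in HEC59, 14.2 in COV318, 12.2 in KLE, 4.59 in 1321N1, 0.240 in H522 and 0.0252 in H146, and was listed at 0 in H661 and H716. All 3 lung lines lay below 0.3 for both chains, and the endometrial and ovarian lines held the top 3 places. Where both passed 1, COL4A1 per length was 0.675 to 1.79 times COL4A2. The starts of the 2 genes lie 127 bases apart on chromosome 13, so that their windows share 226 bases, and the COL4A2 window holds both starts.

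The second pair, COL4A5 and COL4A6, lies on the X chromosome and supplies networks of kidney, skin and smooth muscle. COL4A5 was at 11.8 in KLE, 8.16 in H146, 7.81 in H661, 6.36 in COV318, 2.95 in HEC59, 0.422 in H716, 0.0460 in H522 and 0.0276 in 1321N1. COL4A6 was at 11.8 in H146, 2.65 in KLE, 1.33 in H661, 0.794 in COV318, 0.148 in HEC59, 0.0692 in H522 and 0.0219 in 1321N1, and was listed at 0 in H716. These chains were therefore detected in H661 and H146, where COL4A1 and COL4A2 were not. COL4A5 exceeded COL4A6 per length 5.86-fold in H661 and 4.44-fold in KLE, but in H146 the ratio was 0.689. The starts are 380 bases apart and the windows share 121 bases. COL4A3 and COL4A4, the pair of kidney and lung basement membranes, start 419 bases apart on chromosome 2 and stayed below 1, with their highest values, 0.884 and 0.543, in KLE.

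The windows of COL4A2 (chr13:110307034-110307333, plus strand), COL4A5 (chrX:108439588-108439887, plus strand) and COL4A6 (chrX:108439409-108439708, minus strand, the first of its 2 windows) are shown because their genes are paired and the COL4A5 pair was detected in lung lines that lacked the COL4A2 pair. The build, the window and the capitals are as given for COL11A1.
COL4A2: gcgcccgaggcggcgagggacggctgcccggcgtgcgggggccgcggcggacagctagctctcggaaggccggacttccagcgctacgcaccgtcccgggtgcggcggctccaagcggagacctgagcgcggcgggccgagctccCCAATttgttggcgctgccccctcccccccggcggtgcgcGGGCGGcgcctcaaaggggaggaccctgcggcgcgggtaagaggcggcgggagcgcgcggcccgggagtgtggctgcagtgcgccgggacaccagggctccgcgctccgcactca
COL4A5: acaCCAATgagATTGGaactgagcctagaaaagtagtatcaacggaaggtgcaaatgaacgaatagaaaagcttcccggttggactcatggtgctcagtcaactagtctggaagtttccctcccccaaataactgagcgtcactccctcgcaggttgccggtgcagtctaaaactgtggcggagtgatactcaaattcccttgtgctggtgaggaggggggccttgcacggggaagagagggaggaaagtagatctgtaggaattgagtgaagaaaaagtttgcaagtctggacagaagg
COL4A6: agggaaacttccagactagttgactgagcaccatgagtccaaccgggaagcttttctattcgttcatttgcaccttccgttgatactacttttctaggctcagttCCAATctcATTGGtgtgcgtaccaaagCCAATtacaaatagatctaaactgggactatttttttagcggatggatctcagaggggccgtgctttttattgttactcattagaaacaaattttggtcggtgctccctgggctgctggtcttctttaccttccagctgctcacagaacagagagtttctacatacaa
The COL4A2 window had 77.7% G and C bases and 1 match each to CCAAT and GGGCGG, whereas the COL4A5 and COL4A6 windows had 49.3% and 43.7% and held CCAAT matches without GGGCGG. Of all 35116 windows in the RefSeq table, 34.6% held CCAAT, 45.0% GGGCGG and 11.5% TATAAA, each searched on both strands. ATTGG and GGGCGG can share their G bases where they meet. Windows were found for 29 of the 39 chains. Of their 41 windows 31.7% held CCAAT, 56.1% GGGCGG and 17.1% TATAAA. Counting a gene when any of its windows matched, CCAAT occurred in 11 of these genes, GGGCGG in 20 and TATAAA in 6. A match describes letters in a window and is not evidence of a bound factor.

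Type VI collagen, which forms beaded filaments around cells, was highest in 1321N1. COL6A3, the longest of its chains, was at 315 in 1321N1, 3.35 in COV318, 1.16 in H661, and between 0.00369 and 0.0477 in the other 5 lines. Its level in 1321N1 was 94.1-fold above the next line. COL6A1 was at 69.6 in 1321N1, 34.6 in KLE, 9.19 in HEC59, 6.84 in H661, 2.81 in COV318, 1.17 in H522, 0.620 in H716 and 0.0154 in H146. COL6A2 was at 17.8, 8.39, 2.91, 2.72, 0.536, 1.22 and 0.131 in the same first 7 lines and was listed at 0 in H146. KLE and HEC59 thus had COL6A1 and COL6A2 with COL6A3 at 0.0224 and 0.00560. COL8A1, a short-chain collagen of vessel walls and the eye, was also highest in 1321N1, at 34.8, with 2.52 in H661, 2.17 in KLE, 1.90 in COV318 and under 0.1 in the other lines.

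Fibril-associated collagens were led by COL12A1 and COL14A1, related chains that bind the surface of fibres. COL14A1 was at 406 in H716, 12.7 in H522, 0.838 in H661, 0.556 in 1321N1, 0.513 in COV318, 0.197 in HEC59, 0.163 in H146 and 0.155 in KLE. The level in H716 was 31.9-fold above that in H522, and the other 6 lines stayed below 1. COL12A1 was distributed differently, at 75.7 in KLE, 53.3 in COV318, 49.3 in 1321N1, 9.85 in H661, 2.70 in HEC59, 1.54 in H522, 0.204 in H716 and 0.109 in H146. Others of the class were low and local: COL16A1 reached 4.05 in KLE, COL22A1 1.95 in H146, COL9A2 1.32 in COV318, and COL9A3 1.17 in H716 and 1.15 in KLE.

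COL18A1, the basement membrane chain whose end fragment is endostatin, was at 15.5 in HEC59, 8.73 in KLE, 2.11 in COV318, 0.594 in H522, 0.445 in H661, 0.199 in 1321N1, 0.0322 in H146 and 0.0121 in H716. The 2 endometrial lines were above all others and COV318 came next. COL17A1, a transmembrane chain of hemidesmosomes that anchors epithelial cells, was at 22.2 in H522, 14.4 in HEC59, 0.619 in KLE, 0.425 in H661, 0.288 in 1321N1, 0.231 in H146 and 0.00721 in H716, and was listed at 0 in COV318. It was thus split within both tissues that have more than 1 line. Among other transmembrane chains COL25A1 was at 11.2 in HEC59 and at most 0.430 elsewhere, and COL13A1 was at 4.33 in 1321N1 and listed at 0 in the other 7 lines. COL7A1, which builds anchoring fibrils, reached 1.82 in KLE alone.

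The chains below 1 in every line were COL4A3, COL4A4, COL5A3, COL8A2, COL9A1, COL10A1, COL11A2, COL15A1, COL19A1, COL21A1 and COL23A1, 11 in all. Their highest values ran from 0.0101 for COL19A1 in KLE to 0.959 for COL8A2 in KLE. With detection set at an FPKM of 0.5 the number of detected chains was 33, and at 5 it was 20.

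Chains that assemble together or lie next to each other were compared across the 8 lines on the log2(FPKM + 1) scale. These correlations are descriptions over 8 libraries that also differ in tissue and depth. COL4A1 and COL4A2 varied together (Pearson's r = 0.968, Spearman's rho = 0.850, n = 8), and r was 0.963 without HEC59 and COV318, the lines farthest from the median. COL6A1 and COL6A2, neighbours on chromosome 21, also varied together (r = 0.977, rho = 0.976, n = 8, and r = 0.915 without 1321N1 and KLE). For COL4A5 and COL4A6 r was 0.732 and rho 0.905, and for COL3A1 and COL5A2, neighbours on chromosome 2, r was 0.842 and rho 0.810. Without the 2 farthest lines these were 0.677 and 0.671.

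For other partners the relation rested on 1 or 2 lines. COL1A1 and COL1A2 had r = 0.909 and rho = 0.488 (n = 8), and r was -0.333 without 1321N1 and H661. COL5A1 and COL5A2 had r = 0.497 and rho = 0.192, and r was -0.543 without the same 2 lines. COL6A1 and COL6A3 had r = 0.631 and rho = 0.214, and r was 0.0292 without 1321N1 and 0.836 without KLE. The chains of type VI collagen thus did not all follow one another, in contrast to COL4A1 and COL4A2.

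**Figure D3:**
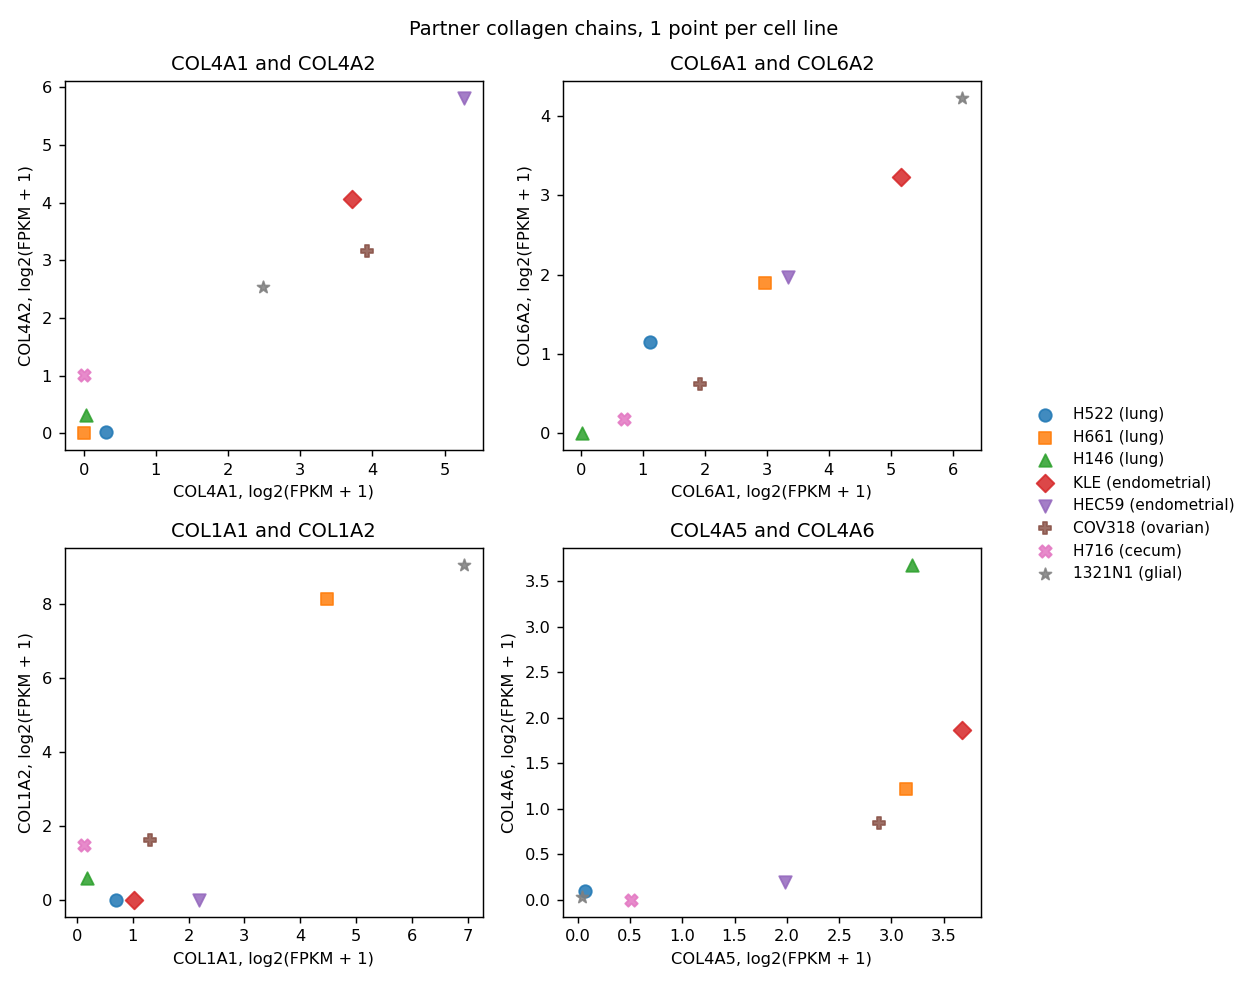
Levels of partner chains against each other, as log2(FPKM + 1) on both axes, with 1 point per line. COL4A1 with COL4A2 and COL6A1 with COL6A2 lie along a line, and COL1A1 with COL1A2 is spread by 1321N1 and H661. Of the lines where COL4A5 and COL4A6 both reach an FPKM of 1, H146 alone has more COL4A6 than COL4A5.

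Tissues were compared with limma across 15650 genes that reached an FPKM of 1 in 2 lines or more, of which 21 are collagen chains. The other 18 chains did not pass this filter and were not tested. Since a tissue is represented by separate tumours, the p-values rest on the spread between lines. In the comparisons against other lines, those lines pool several tissues without a term for each. Their spread therefore includes differences between tissues. Only the fit of lung against endometrial lines has a term per tissue. The 3 comparisons share lines, and their values are given side by side.

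In the lung lines the basement membrane chains COL4A1 and COL4A2 were lower than in the other 5 lines, but no chain passed the test. COL4A2 had a mean log2(FPKM + 1) of 0.11 ± 0.18 (SD, n = 3) in lung and 3.32 ± 1.78 (SD, n = 5) elsewhere, without overlap, a difference of -3.21 (SE 0.91, limma adjusted p = 0.576). COL4A1 differed by -2.96 (SE 0.997, limma adjusted p = 0.715) and overlapped, since H716 was listed at 0. After Benjamini-Hochberg adjustment 0 of the 21 chains passed, and 0.0256% of all genes tested did. At an unadjusted p under 0.05 there were 2 chains of 21, these same type IV chains, and 5.94% of all genes. This count was 4 of 18 chains without H716, where 7.07% of all genes reached it. It was 4 of 20 chains without H146, with 7.41% of all genes.

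Other large differences in the lung comparison stayed within the spread between lines. COL12A1 differed by -2.32 (SE 1.43), COL6A1 by -2.08 (SE 1.22) and COL5A2 by 1.97 (SE 1.52), with limma adjusted p of 0.869, 0.863 and 0.889. The groups overlapped for all 3 genes. COL4A2 was the single chain of 21 that was lower in the lung lines without overlap (2.23% of all genes), and 0 were higher without overlap (2.07%). The median difference was -0.53 over the 21 chains and -0.02 over all genes. Within the lines that share a step pattern, the COL4A2 difference was -2.53 (2 lung against 2 other lines) and -3.52 (1 against 3), that of COL4A1 was -1.70 and -3.86, and that of COL5A2 was 3.17 and -1.26.

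In the endometrial lines COL18A1, COL4A2 and COL4A1 had means farthest above those of the other 6 lines, and again no chain passed over all lines. COL18A1 had a mean log2(FPKM + 1) of 3.67 ± 0.54 (SD, n = 2) against 0.53 ± 0.60 (SD, n = 6), a difference of 3.14 (SE 0.52, limma adjusted p = 0.167). Without COV318, the ovarian line whose COL18A1 came nearest, the difference was 3.36 (limma adjusted p = 0.0375). This was the single call among the chains under any alternative. Calls over all genes also rose without COV318, to 30 of 15226 genes from 1 of 15650. COL4A2 differed by 3.77 (SE 0.95, limma adjusted p = 0.598) and COL4A1 by 3.37 (SE 1.103, limma adjusted p = 0.827). The groups overlapped for COL4A1, since COV318 at 14.2 lay above KLE at 12.2. Of the 21 chains 0 passed, against 0.00639% of all genes, and 3 had an unadjusted p under 0.05, against 4.82%. This last count was 5 of 20 chains without 1321N1, against 4.62% of all genes.

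COL18A1 and COL4A2 were the 2 of 21 chains higher in the endometrial lines without overlap (2.43% of all genes), and 0 were lower without overlap (4.53%). COL14A1 differed by -2.23 (SE 2.0, limma adjusted p = 0.954), and it was -4.23 within the step pattern that holds H716 and -0.23 within the other. COL1A2, listed at 0 in both endometrial lines, was also listed at 0 in H522 and is given no fold. The median difference was 0.05 over the 21 chains and -0.11 over all genes, and after upper-quartile scaling the 2 medians were 0.04 and -0.00251. After quantile normalization the median over the chains was -0.00868, and it was -0.60 without KLE and 0.75 without HEC59. By class, 4 of 4 type IV chains tested had a higher mean in the endometrial lines and 7 of 8 fibrillar chains a lower one, where 42.9% of all genes had a higher mean. The type IV chains are paired genes and not separate results, and COL4A6 differed by only 0.05 (SE 0.96). The fibrillar chains differed between the endometrial lines. COL3A1 and COL11A1 were at 55.2 and 82.8 in KLE and listed at 0 in HEC59, while COL1A1, COL5A1 and COL27A1 were higher in HEC59. Within the step patterns COL18A1 differed by 2.88 and 3.40, COL4A2 by 3.72 and 3.81, and COL4A1 by 3.62 and 3.11, each 1 endometrial line against 3 others.

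Set directly against the endometrial lines, the lung lines had lower COL4A2, COL4A1, COL18A1 and COL6A1, none past the threshold. The log2 difference was -4.83 for COL4A2 (SE 0.65, limma adjusted p = 0.215), -4.38 for COL4A1 (SE 0.61, limma adjusted p = 0.215), -3.25 for COL18A1 (SE 0.50, limma adjusted p = 0.231) and -2.88 for COL6A1 (SE 1.02, limma adjusted p = 0.804). Of 21 chains 0 passed (0.00639% of all genes), and these 4 had an unadjusted p under 0.05 (5.54%). Without overlap 6 chains were lower in the lung lines (9.27% of all genes) and 0 were higher (11.6%). The 6 were these 4 with COL6A2 and COL9A3. Of 8 fibrillar chains tested, 7 had a higher mean in the lung lines (54.0% of all genes) with a median of 1.48, and 0 had an unadjusted p under 0.05. The lung lines with the high values were H661 and H522, and H146 had only COL2A1 and COL3A1 above 1 in this class. Within the step patterns the difference was -4.06 and -5.50 for COL4A2, -3.56 and -5.23 for COL4A1, -2.68 and -4.00 for COL18A1 and -3.11 and -3.33 for COL6A1.

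**Figure D4:**
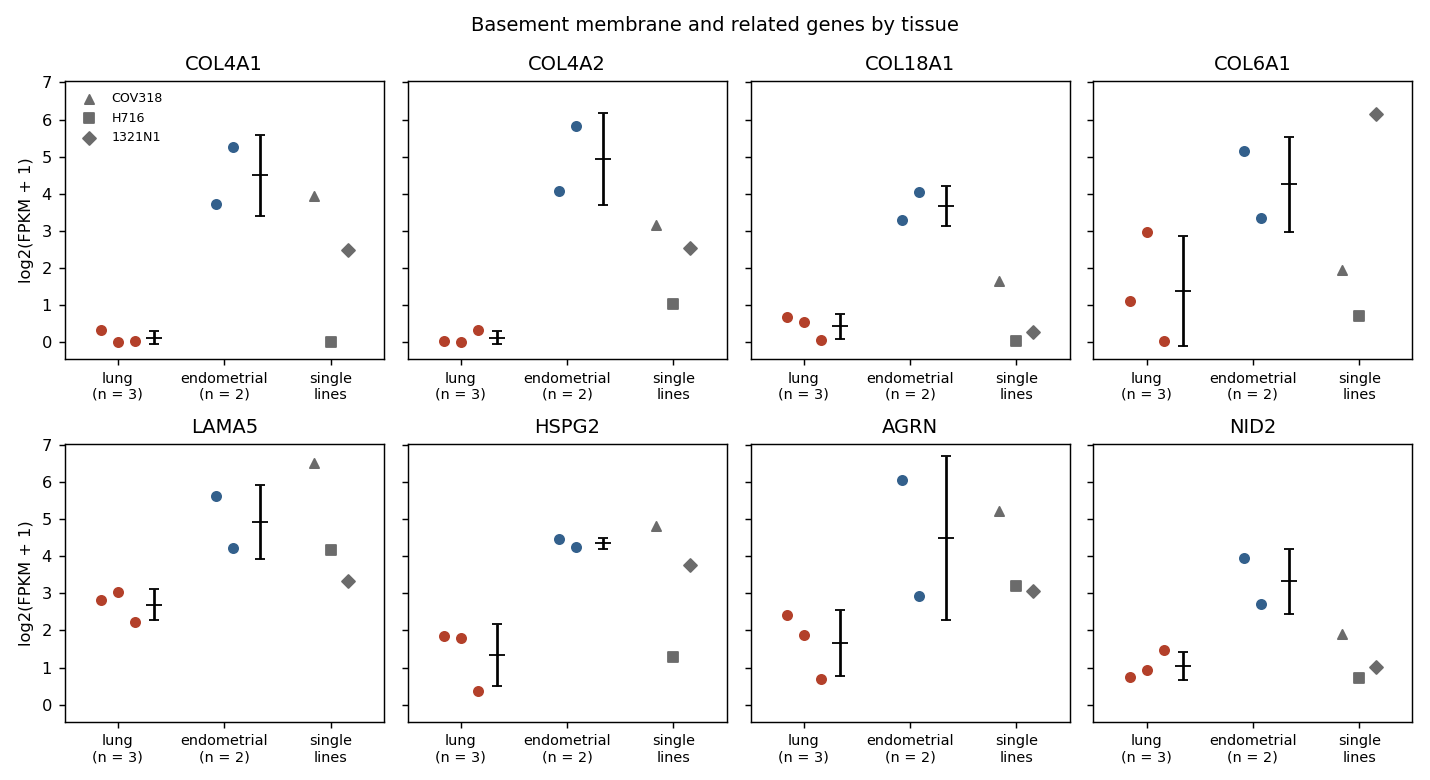
Levels as log2(FPKM + 1) of 4 collagen chains and 4 basement membrane partners in the lung lines (red), the endometrial lines (blue) and the 3 lines that are single for their tissue (grey, by symbol). Black bars are the mean ± SD of a tissue. The 8 genes were picked from those lower in the lung lines at an unadjusted p under 0.05 (limma). The lung points lie below both endometrial points in all 8 panels, as for 9.27% of all genes tested. LAMA4, which was higher in the lung lines, is not shown.

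Cell state markers are given beside these comparisons. Epithelial markers summed to 2281.5 in KLE and 593.4 in HEC59, with 9 of 10 at 1 or more in each. In the lung line H146 they summed to 485.6 with 10 of 10 at 1 or more, and in the other 5 lines to between 16.5 and 279.7 with 2 to 7 of 10. Mullerian markers summed to 103 and 276 in the endometrial lines and to between 0.421 and 117 in the others, highest in COV318. Markers of the mesenchymal state summed to 3394 in 1321N1 and 1490.4 in H661, the 2 lines with the highest collagen sums. They summed to 1415.9 in KLE, between 222 and 552 in H522, HEC59, H716 and COV318, and 29.98 in H146. The H661 sum was mostly 1 marker, VIM at 1371. Of the 8 markers, 5 were at 1 or more in H661, 8 in 1321N1, and 7 each in KLE and COV318. By the mean of log2(FPKM + 1) over the list, H661 at 3.30 lay below KLE at 4.21 and COV318 at 4.08. Fibroblast markers summed to 891 in KLE, 574 in COV318, 251 in H716, 136 in 1321N1 and at most 26.1 elsewhere. DCN, which encodes decorin, was at 32.3 in 1321N1 and listed at 0 in H716, HEC59 and H146. The part of these states in the collagen levels was not tested.

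Genes of the basement membrane outside the collagen family also had low means in the lung lines, with no call. Of the 13 tested, 11 had a lower mean in the lung lines than in the other lines (median log2 difference -1.19, with -0.02 over all genes), where 48.4% of all genes had a higher mean, and 0 passed. An unadjusted p under 0.05 (5.94% of all genes) was reached by 4 of the 13: LAMA5 and LAMB1, which encode laminin chains, and HSPG2 and AGRN, which encode the proteoglycans perlecan and agrin. Their differences were -2.08 (SE 0.68), -1.71 (SE 0.74), -2.37 (SE 0.79) and -2.42 (SE 0.80), with limma adjusted p of 0.686, 0.821, 0.703 and 0.701. LAMA5 and AGRN were lower without overlap (2.23% of all genes), whereas LAMB1 was low in H522 at 2.66 and H661 at 13.1 but 40.8 in H146. Within step patterns the LAMB1 difference was -2.58 and 0.00328. Lower means in the lung lines were not particular to this list. They were found for 14 of 18 genes tested for collagen modification and 8 of 11 for propeptide removal and cross-linking. The count was 7 of 8 for fibril partners, 3 of 5 for collagen receptors and 2 of 3 for collagenases and gelatinases.

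In the endometrial lines 9 of these 13 genes had a higher mean than in the other lines (median 1.24; 42.9% of all genes had a higher mean), 0 passed, and 2 had an unadjusted p under 0.05 (4.82% of all genes), NID2 among them. NID2, which encodes the linker nidogen-2, stood at 14.4 in KLE, 5.50 in HEC59 and 2.72 or less elsewhere, a difference of 2.196 (SE 0.51, limma adjusted p = 0.570). Between lung and endometrial lines, 5 of the 13 were lower in the lung lines and 1 was higher at an unadjusted p under 0.05 (5.54% of all genes). Among those lower were NID2, LAMA5, HSPG2 and AGRN, by -2.27, -2.23, -3.02 and -2.82, and LAMA4, a laminin chain of vessels and muscle, was higher by 3.46. Their limma adjusted p ran from 0.386 to 0.876. LAMC1, the chain shared by most laminins, was the highest member of the list, at 218 in KLE, and was at 99.9 or more in every line except H146, where it was 9.64. LAMA1, LAMA4 and LAMB3 were each listed at 0 in at least 1 line, and LAMA2 was not analysed here.

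Enzymes and chaperones that build the collagen helix were expressed in more lines than the chains. Of 19 genes, 11 were at 1 or more in all 8 lines, and 1 (P4HA3) was below 1 in all. PPIB, a prolyl isomerase that speeds folding, was the highest, from 86.9 in H146 to 426 in H716. P4HB, a subunit of prolyl 4-hydroxylase, ranged from 38.7 in H146 to 94.4 in H661. Of the 18 genes tested, 0 passed or had an unadjusted p under 0.05 in any of the 3 comparisons.

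Gaps in this set fell in particular lines, and the genes named for them here were chosen after their values were seen, except P3H2. SERPINH1, which encodes the collagen chaperone HSP47, was at 64.5 in 1321N1, 51.1 in H661, 44.1 in COV318, 25.96 in KLE, 18.1 in H522, 13.0 in H716 and 3.56 in H146, but 0.134 in HEC59. FKBP10, an isomerase that acts with it, was at 0.147 in HEC59 and 0.223 in COV318 and at 3.84 or more elsewhere. HEC59, where SERPINH1 was lowest, was also the line with the lowest fibrillar sum, 7.62. P3H2, a prolyl 3-hydroxylase that acts on type IV chains, was at 218 in COV318, 160 in 1321N1 and 21.2 in KLE, under 1 in the other lines and listed at 0 in H716. HEC59, with the highest COL4A1 and COL4A2, had P3H2 at 0.644. PLOD2, a lysyl hydroxylase of cross-link sites, was at 0.103 in H522 and at 4.97 to 69.1 elsewhere, and COLGALT2, a collagen galactosyltransferase, was at 47.6 in H661 and at most 2.19 in the other lines.

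**Figure D5:**
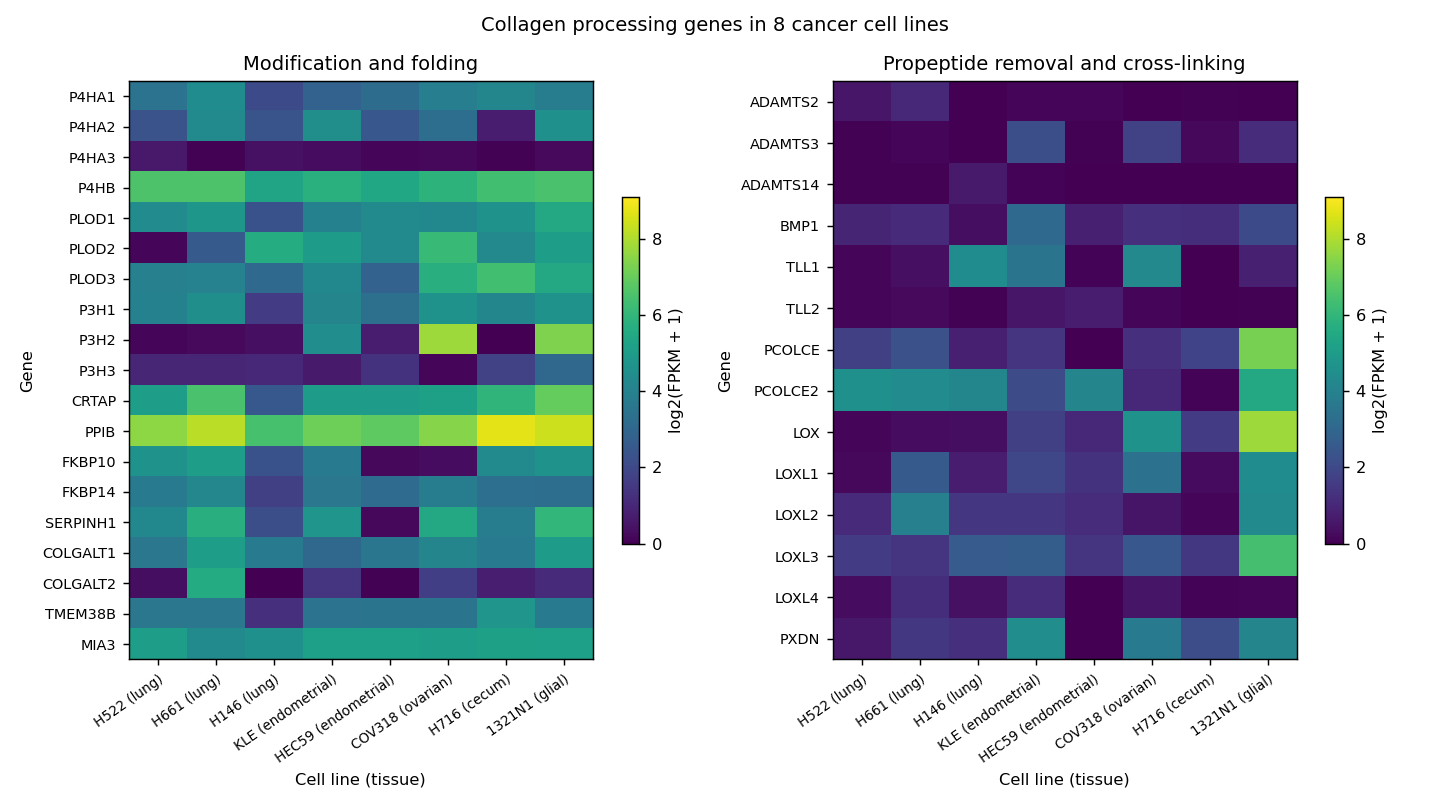
Levels, as log2(FPKM + 1) by colour, of 19 genes for modification and folding of collagen (left) and 14 genes for propeptide removal and cross-linking (right) in each line. The left panel is bright in most rows across lines with dark cells such as SERPINH1 in HEC59, and the right panel is brightest in 1321N1.

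Genes that trim and cross-link collagen outside the cell were highest in 1321N1 for 6 of 14. LOX, which oxidises lysines for cross-links, was at 218 in 1321N1, 24.7 in COV318 and at most 2.33 in the other 6 lines. In the same line PCOLCE, an enhancer of propeptide removal named after its values were seen, was at 151 and at most 3.84 elsewhere. PXDN, the peroxidase that cross-links type IV collagen, was at 20.9 in KLE, 16.6 in 1321N1, 12.9 in COV318 and at most 3.48 elsewhere, and was listed at 0 in HEC59, the line with the most COL4A1 and COL4A2. PCOLCE was also listed at 0 in HEC59, and ADAMTS2, ADAMTS3, ADAMTS14 and TLL2 were each listed at 0 in at least 1 line. Of the 11 tested, 0 passed or had an unadjusted p under 0.05 in any comparison.

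Receptors, partners and proteases of collagen were uneven as well. ITGB1, the shared chain of the collagen-binding integrins, was the highest receptor, from 34.9 in HEC59 to 207 in H661. It was lower in the endometrial lines without overlap (4.53% of all genes), by -1.26 (SE 0.52, limma adjusted p = 0.954), and was the single receptor of 5 tested with an unadjusted p under 0.05 (4.82% of all genes). ITGA11, GP6 and LAIR1 were each listed at 0 in at least 1 line and did not exceed 2.41. FN1, which encodes fibronectin, was at 1001 in 1321N1 and 956 in KLE and at most 11.9 in the other lines, so H661, with nearly the same collagen sum as 1321N1, had FN1 at 1.69. DCN, LUM, FMOD and POSTN, also fibril partners, were each listed at 0 in at least 1 line. MMP1, the interstitial collagenase that cuts fibrillar collagen, was at 81.2 in H661, 9.35 in HEC59 and at most 1.01 elsewhere, and was listed at 0 in H146. MMP2, MMP8, MMP9, MMP13 and MMP14 were also listed at 0 in at least 1 line each. No fibril partner of 8 tested and no protease of 3 tested passed or had an unadjusted p under 0.05.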

How the data were processed

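RNA sequencing values were used from 8 cell lines, 1 library each. The authors deposited FPKM per Ensembl gene identifier with symbols, 1 table per line, per the file headers. The submitters' processing notes name CASAVA 1.4, TopHat2 2.0.8, SAMtools 1.0 and the build GRCh37. The FPKM program, its annotation and its use of strand were not given in the sources used here.

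All tests used log2(FPKM + 1), a scale that understates differences of low genes. Detection was set at an FPKM of 1. Genes reaching 1 in 2 or more lines entered limma 3.58.1 (eBayes with trend) in R 4.3.3, two-sided, with Benjamini-Hochberg adjustment over 15650 genes at 0.05. The comparisons set the lung group against 5 lines, the endometrial group against 6, and lung against endometrial in a fit with a term per tissue. The procedure was tested on simulated data, with a pass set at a spread smaller than the median spread between these lines. Its power at the measured spread is not given here. Line sums leave out 3 values above 100000. Sets of lines came from the read steps of FPKM under 0.1: on average 20.3% of genes lay at the commonest ratio within sets and 10.9% between them. Only splits into sets of equal size were tried. Single pairs overlapped: KLE with COV318, from different sets, had 17.7%, and H522 with KLE, from the same set, had 15.6%.

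Values in each line are given for chains that reached 10. In each comparison the chains named have an unadjusted p under 0.05 or are among the 5 with the largest difference, and pathway genes have an unadjusted p under 0.05 or the highest or lowest level of their list. The members and lists were chosen with earlier results of these data known. Alternatives covered pseudocounts, filters, scaling, trend, the set of lines and leaving out each line. Promoter windows are from the RefSeq table (GRCh38.p14), used by gene symbol and not joined to GRCh37 coordinates. One listed gene enters the counts but is not reported here.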

Additional observations from a re-analysis of the deposited data

How the results depend on the processing

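No paired analysis was possible because replicate numbers are in accession order and the lines of different tissues share no source. Each comparison was refitted under 16 alternatives. Of 446 refitted values for the 28 named differences of chains and pathway genes, 445 kept their direction and their side of the threshold, and the exception was COL18A1 in the endometrial lines (adjusted p = 0.0375 without COV318, and 0.0375 to 0.792 over the alternatives, limma). Leaving out an endometrial line leaves 1 line, which is assumed to vary like the other groups. The number of chains called was 0 throughout for lung against other lines and for lung against endometrial lines, and 0 to 1 for endometrial against other lines when single lines were left out. Over all genes, lung against other lines had 4 calls, but 1 with no filter on low values, 11 with a pseudocount of 0.1, 2 with a pseudocount of 5, 9 after quantile normalization, 2 with the step set in the model, and 1 to 16 without single lines, lowest without COV318 and highest without H146. Endometrial against other lines had 1 call, but 20 with no filter, 4 with a pseudocount of 5 and 1 to 30 without single lines, highest without COV318. Lung against endometrial lines had 1 call, but 0 with no filter, 0 with an FPKM of 1 required in 1 line, and 0 to 1 without single lines. In the order of the lines by collagen level, 2 of 8 kept their place when the mean of log2(FPKM + 1) replaced the sum. Without the 2 lines farthest from the median, r reversed to -0.333 for COL1A1 with COL1A2 and to -0.543 for COL5A1 with COL5A2. With values centred within the sets of lines, an alternative chosen after seeing the data, the latter r was 0.892. The causes of these changes were not tested. Absolute depth is unknown, so values near 0 are given without a counting error, and 1 library per line limits every statement about a single line.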

Other observations

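Genes often used as markers of fibroblasts had their highest values in different lines. Of the 9 listed, 8 were at 1 or more in 1321N1, the line with the highest collagen sum. DCN, PDGFRB and THY1 were highest there, at 32.3, 4.19 and 20.5, and THY1 was next highest in H661, at 16.7. FAP, a surface protease of activated fibroblasts, was at 194 in H716, 12.5 in 1321N1 and at most 3.20 elsewhere, and LUM, a proteoglycan that binds fibrils, was at 52.7 in H716, 12.4 in 1321N1 and at most 6.94 elsewhere. H716 was also the line with COL14A1 at 406, while its COL1A1 was at 0.0879. ACTA2, a smooth muscle actin, was at 434 in KLE and at most 3.80 elsewhere. TAGLN and PDPN were high in KLE (341 and 106) and COV318 (470 and 101), the 2 lines with the highest COL12A1. They were at most 2.01 and 0.437 in the other lines. In 1321N1, where COL12A1 was at 49.3 beside 53.3 in COV318, TAGLN was at 2.01 and PDPN at 0.0720. PDGFRA was at 50.1 in 1321N1 and 9.38 in H146. These genes were named after their values were seen.

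Matrix partners separated the 2 lines with the highest collagen sums. POSTN, which encodes periostin, and THBS1, which encodes thrombospondin-1, were at 135 and 237 in H661 and at 3.49 and 14.1 in 1321N1. BGN, which encodes biglycan, was at 175 in 1321N1 and 0.0953 in H661. SPARC, a collagen-binding protein, was high in both, at 537 in 1321N1 and 180 in H661, and highest in KLE at 869. DDR2, a receptor for fibrillar collagen, was at 44.9 in 1321N1 and 1.06 in H661. These are values of single libraries, named after they were seen, with no test.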
